A study of Mus musculus with 2 samples.

Results

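Chromosome 15 held 214 of the 3225 windows in a list of ERRα binding sites from mouse C2C12 myotubes, or 6.64% of them (95% exact binomial interval 5.80 to 7.55%). The windows were selected on their chromosome alone, as every entry of the deposited peak list on chromosome 15 of the mm9 build. The chromosome itself was picked from its measured number of windows, which is high for its gene number. That excess is therefore the starting point and is described here without a test. The 19 autosomes together held 3183 windows, of which 2969 lay on the 18 others. Each window is 200 bp wide, starts on a grid of 25 bp, and carries no height, score or gene name.

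C2C12 cells are mouse myoblasts of an established line, which form myotubes in low serum. For both libraries they were kept for 72 h in 2% horse serum to differentiate, then infected for 48 h with an adenovirus for PGC-1α carrying a flag tag, so no library without PGC-1α over-expression was analysed here. The first library, IP_ERRa, is chromatin immunoprecipitated with a rabbit monoclonal antibody to ERRα. The second, WCE, is whole cell extract (input DNA) of such myotubes and served as background. With 1 library of each kind and 1 list for both, there is no replicate, the read depth behind a window is unknown, and no comparison below has a test. A list of positions holds no expression values, so the labelled cell type could not be checked against marker genes.

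ERRα is an orphan nuclear receptor that binds DNA at an extended recognition site with the core AAGGTCA and is known for its role at genes of mitochondrial respiration and fatty acid oxidation. PGC-1α is a coactivator that does not bind DNA by itself and is recruited by ERRα and other factors to raise their output in muscle. Sites of such receptors lie both near gene starts and far from them, and gene starts are unevenly spread along mouse chromosomes, so the number of genes in a stretch is the natural yardstick for the number of windows in it.

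The windows' own sequence was not used here, since the genome build of the list was not at hand. The core was instead counted in the promoters of RefSeq genes on the later build GRCm38.p6 (300 bases, from 250 before to 50 after each gene start, either strand), to show how common these letters are on chromosome 15. Of 761 genes with a promoter there, 53 (6.96%, 95% exact binomial interval 5.26 to 9.01%) held AAGGTCA, against 1328 of 24987 genes (5.31%, 5.04 to 5.60%) on the other autosomes in the table. This share was the highest of the 18 autosomes in the table, the next being 6.09%, but its interval overlaps that of the others, and for the longer forms below chromosome 15 ranked 3rd and 17th. The longer form TNAAGGTCA, which contains the core, was found in 13 of the 761 genes (1.71%, 0.913 to 2.90%) against 353 of 24987 (1.41%, 1.27 to 1.57%). Over all 32851 promoters of the table the shares were 4.72% for the core and 1.28% for the longer form. The full TCAAGGTCA stood in 2 of the 761 genes (0.263%, 0.0318 to 0.946%) and in 0.472% of genes elsewhere. Most of the chromosome's windows lie above 50 Mb, as do 38 of the 53 promoters with the core. Per gene, the core was found in 38 of 582 genes above 50 Mb (6.53%) and in 15 of 179 below (8.38%). Windows per 100 protein-coding genes were also fewer above 50 Mb, at 24.1 against 41.6 below. These rates rest on another set of genes. Below 50 Mb there were 154 protein-coding genes, against 179 genes in the promoter table. A link between motif and windows was not tested.

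The promoters shown are those with the longer form between 70 and 90 Mb, the 20 Mb with the most windows per Mb, followed by those of the 2 genes with the full form. Each is printed 5′ to 3′ on the strand of the gene, with the motif in capitals, as TNAAGGTCA or its reverse complement. Tnrc6b encodes a protein of microRNA silencing, the Apol genes encode apolipoprotein L proteins, and the Gm names are predicted genes.
Apol10a (GRCm38.p6 chr15:77476831-77476859, plus strand): gctttatcatTGACCTTCAttcttggctc
Apol11a (GRCm38.p6 chr15:77508054-77508082, plus strand): gcttcataatTGACCTTCAttcttggctc
Apol11b (GRCm38.p6 chr15:77643473-77643501, minus strand): gcttcataatTGACCTTCAttcttggctc
Gm52189 (GRCm38.p6 chr15:79224673-79224701, minus strand): aaggctactgTGAAGGTCAagaagtcagg
Tnrc6b (GRCm38.p6 chr15:80798555-80798583, plus strand): cgcctctattTGAAGGTCAcaaaaagctg
Gm49415 (GRCm38.p6 chr15:68755290-68755318, plus strand): ctgaagacctTGACCTTGAtgctggcttt
Gm30085 (GRCm38.p6 chr15:93001446-93001474, plus strand): ccagcttgtgTCAAGGTCAcacacaaaac

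Apol11a and Apol11b share all 29 letters, so the family counts as related copies. These matches are letters in a promoter of another build and were not tied to any window.

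Along the chromosome, windows ran from chr15:3945951-3946150 to chr15:103080651-103080850 on mm9. In steps of 10 Mb from the first base, the windows numbered 16, 4, 17, 16 and 11 up to 50 Mb, then 15 and 12 up to 70 Mb, 41 and 41 between 70 and 90 Mb, 26 from 90 to 100 Mb and 15 in the last, partly filled step. The protein-coding genes in the same steps, from the RefSeq table of GRCm38.p6, numbered 40, 24, 16, 57 and 17, then 47 and 25, 194 and 147, 105 and 104. The steps from 70 to 90 Mb were thus the highest in both. Because the gene positions come from another build, they were compared with windows only over bins of megabases.

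**Figure D1:**
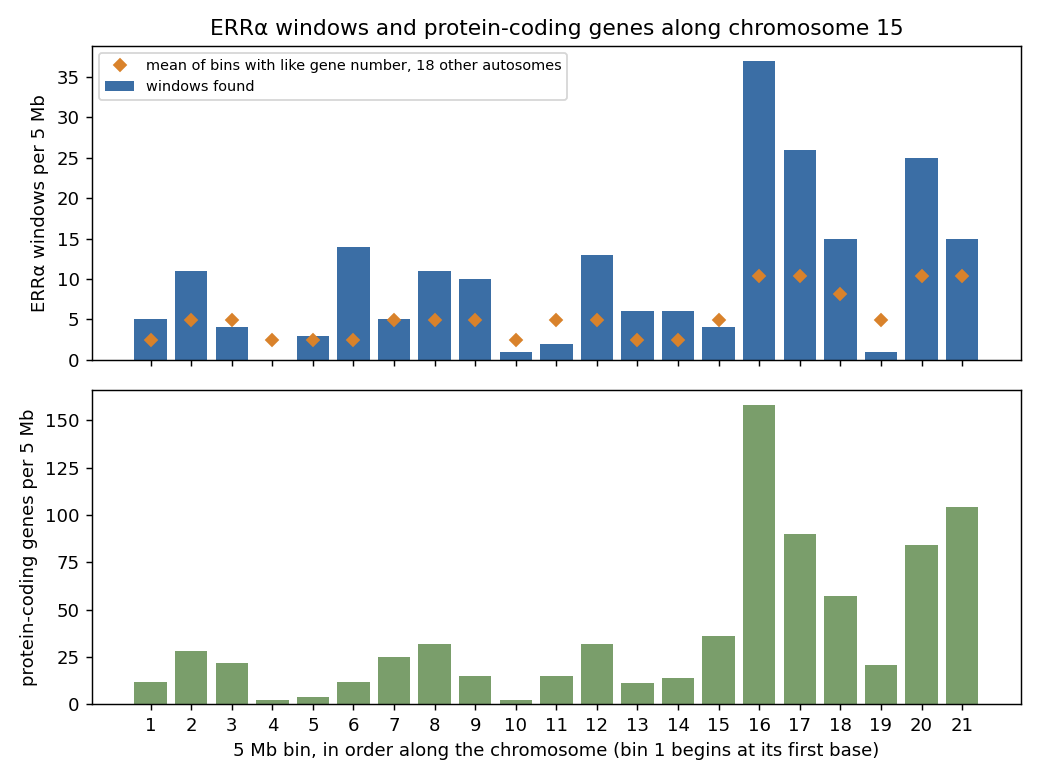
ERRα windows (upper panel, bars) and protein-coding genes (lower panel) in each 5 Mb bin of chromosome 15, bins numbered in order from the first base; diamonds give the mean number of windows in bins of the same gene number class on the 18 other autosomes. Bin 16 is the highest in both panels, with 37 windows and 158 genes, and the bars exceed the diamonds in 15 of 21 bins.

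In bins of 5 Mb, the counts spread between 0 and 37 windows. The richest was 75 to 80 Mb, with 37 windows (95% exact Poisson interval 26.1 to 51.0, counting error only) and 158 genes. It was followed by 80 to 85 Mb with 26 windows and 90 genes, and by 95 to 100 Mb with 25 windows and 84 genes. These 3 bins held 88 windows, 41.1% of the chromosome's windows, and 332 genes, 42.8% of its genes. The poorest were 15 to 20 Mb, with 0 windows and 2 genes, 45 to 50 Mb, with 1 window and 2 genes, and 90 to 95 Mb, with 1 window and 21 genes. Over the 21 bins, those with more genes held more windows (Spearman rho 0.74, Pearson r 0.89, a description over neighbouring bins of 1 library). The same rho on the other autosomes ran from 0.14 to 0.74 with a median of 0.62, where chromosome 15 came just under chromosome 4. This place depended on the bin width: over its 11 bins of 10 Mb rho was 0.67, the 12th of 19, below the others' median of 0.73 and their highest of 0.93.

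Counted per gene, the stretch with the most windows no longer stood out from the chromosome as a whole. The 82 windows between 70 and 90 Mb made 24.0 windows per 100 protein-coding genes (341 genes), near the 27.6 of the whole chromosome, with 21.1 from 70 to 80 Mb and 27.9 from 80 to 90 Mb. Steps with few genes lay on both sides of this. From 20 to 30 Mb there were 17 windows beside 16 genes, or 106 per 100 genes, and from 40 to 50 Mb 11 windows beside 17 genes, or 64.7, but from 10 to 20 Mb 4 windows beside 24 genes made 16.7. The last step, above 100 Mb, was the lowest with 14.4 windows per 100 genes. Its 104 genes include 26 of the keratin family and the 9 genes of the HoxC cluster, a homeobox cluster. Its 15 windows, all between 100 and 105 Mb, were still above the mean of 10.3 in 5 Mb bins of like gene number elsewhere. Gene-poor stretches of the other autosomes also had more windows per gene than gene-rich stretches. There, 5 Mb bins with at most 14 genes averaged 30.0 windows per 100 genes, and bins with 63 to 215 genes 10.4. Against 10 Mb bins of like gene number elsewhere (129 to 314 genes), the stretch from 70 to 90 Mb was high. The steps from 70 to 80 and from 80 to 90 Mb each held 41 windows where 18.8 were expected, a ratio of 2.18. Each stood above all 49 bins of that class, though the stretch was chosen by its count.

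To compare like with like, the 483 bins of the 18 other autosomes were put in 5 classes of gene number, and each bin of chromosome 15 was set against the mean of its class. The chromosome held 214 windows where 111 were expected in this way, a ratio of 1.92 (95% exact Poisson interval 1.67 to 2.20). This was the highest of the 19 autosomes, each treated in the same way; chromosome 8 came next at 1.48 (1.30 to 1.68), and chromosome 9 was lowest at 0.61. The intervals cover counting error only and take windows as independent, which neighbouring windows are not. The ratio was not carried by a single bin: leaving out each bin in turn gave 1.75 (without 75 to 80 Mb) to 2.00 (without 90 to 95 Mb).

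**Figure D2:**
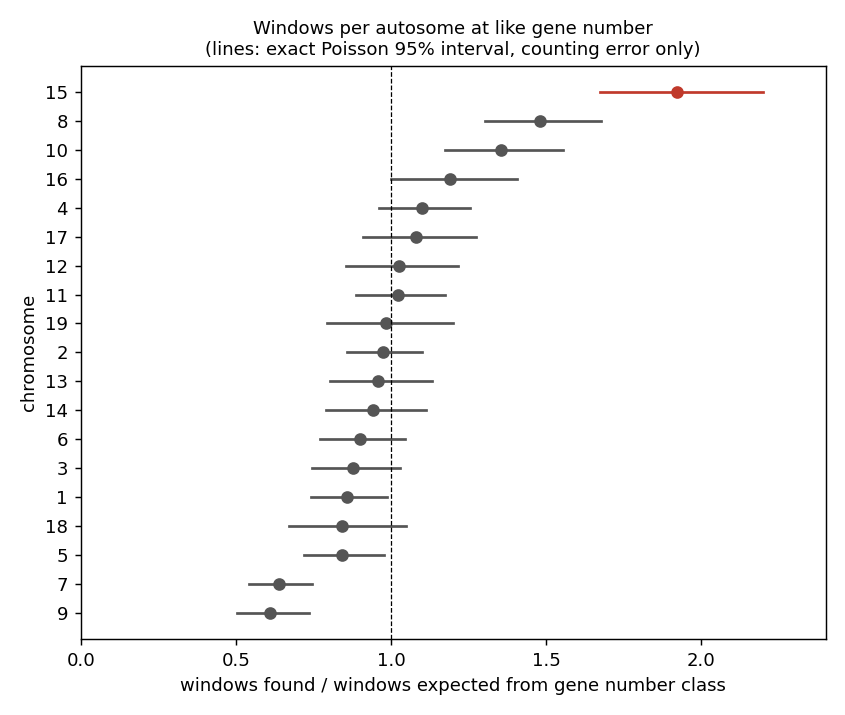
Windows found over windows expected from the gene number class of each 5 Mb bin, per autosome, with exact Poisson 95% intervals that cover counting error only; the dashed line marks a ratio of 1. Chromosome 15 lies at 1.92 and chromosome 8, the next, at 1.48.

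The excess was found in gene-rich and gene-poor bins, but not in every class. In the class with the fewest genes (at most 14 per 5 Mb), 7 bins of chromosome 15 held 35 windows where 17.5 were expected. This is a ratio of 2.00 (1.39 to 2.78), but it rests largely on the bin from 25 to 30 Mb. That bin alone held 14 of the 35 windows, 11.5 more than expected. In the class of 15 to 25 genes, 5 bins held 22 against 24.6 expected, a ratio of 0.89 (0.56 to 1.35). That expected value rests partly on 1 bin of chromosome 8 with 88 windows, 74 of them in a single run; without runs of more than 5 windows anywhere, the ratio was 1.13. In the class of 26 to 38 genes, 4 bins held 39 against 19.8, a ratio of 1.97 (1.40 to 2.70). The single bin of the class of 39 to 62 genes held 15 against 8.21, a ratio of 1.83 (1.02 to 3.01). In the class with the most genes, 4 bins held 103 against 41.3, a ratio of 2.49 (2.04 to 3.03). Chromosome 10, whose 3 bins of that class had a ratio of 2.42, was close to it. The 12 bins of the 2 classes with the fewest genes, added up, had a ratio of 1.35, the 3rd of the autosomes after chromosome 8 (3.60) and chromosome 7 (2.39). Without runs of more than 5 windows these ratios were 1.56 on chromosome 15, 1.57 on chromosome 7 and 1.49 on chromosome 8.

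Bin by bin, 15 of the 21 bins lay above the mean of their class, or 71.4%, against 12.0 to 59.3% of bins on the other autosomes. In 2 bins the count exceeded every bin of the same class elsewhere. The bin from 75 to 80 Mb, with 37 windows, stood above all 96, whose highest had 31. The bin from 25 to 30 Mb, with 14 windows beside 12 genes, stood above all 102, whose highest had 12. It had 11.5 windows more than the mean of its class (2.50), a ratio of 5.60. The next ratios were 3.58 at 75 to 80 Mb and 2.63 at 55 to 60 Mb (13 windows, 32 genes). Below the mean of their class lay 6 bins: 10 to 15, 15 to 20, 45 to 50, 50 to 55, 70 to 75 and 90 to 95 Mb. The lowest of these by ratio were 15 to 20 Mb (0 windows), 90 to 95 Mb (0.20) and 45 to 50 Mb (0.40). The bin from 70 to 75 Mb lies beside the richest bin, yet held 4 windows and 36 genes. Of these genes 7 are of the Ly6 family, small cell surface proteins, but the richest bin itself holds 8 genes of this family. The border at 75 Mb lies among many genes, with 21 in the 1 Mb before it and 28 in the 1 Mb after. The split of these genes on mm9, and with it the class of the bin from 70 to 75 Mb, is therefore less sure.

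The 4 bins farthest above their class (75 to 80, 80 to 85, 95 to 100 and 25 to 30 Mb) held 102 windows, 68.5 more than expected. The other 17 bins held 112 windows against 77.9 expected, a ratio of 1.44 (1.18 to 1.73). Since these 4 bins were chosen by their counts, the second ratio is a description of what the rest of the chromosome holds.

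**Figure D3:**
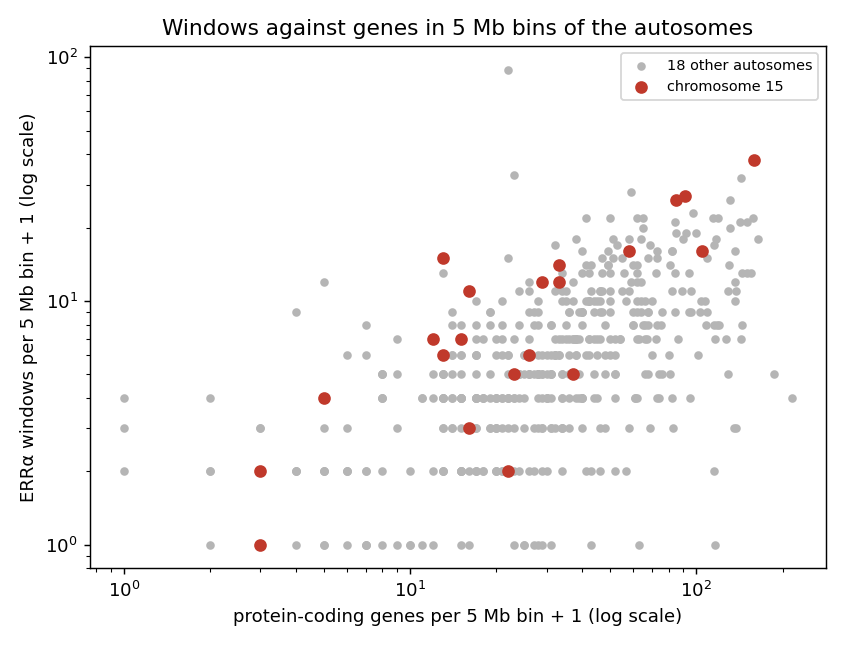
ERRα windows against protein-coding genes in each 5 Mb bin of the autosomes, both plus 1 and on log axes; red points are the 21 bins of chromosome 15 and grey points the 483 bins of the 18 other autosomes. The highest red point has 37 windows and 158 genes; the highest grey point, with 88 windows, is the bin of chromosome 8 that holds the run of 74.

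The sides of the chromosome below and above 50 Mb differ in gene number, and their order depended on how it was taken into account. Below 50 Mb there were 64 windows and 154 genes, and above it 150 windows and 622 genes. Per Mb these are 1.28 and 2.73 windows, a 2.13-fold difference, while the number of genes per Mb differed 3.67-fold. These rates divide by the full length of the 5 Mb bins, the last of which runs past the last window. Per 100 genes there were 41.6 windows below and 24.1 above, a 1.72-fold difference the other way. Against the gene number classes the ratio was 1.72 (1.33 to 2.20) below 50 Mb and 2.02 (1.71 to 2.37) above. This is a 1.17-fold difference with overlapping intervals. With 10 Mb bins the order turned, at 1.87 below and 1.78 above. The upper value there includes the partly filled last step, with 15 windows against 16.7 expected. With 5 Mb bins each side of chromosome 15 had the highest ratio among the 19 autosomes on its side of 50 Mb. The nearest were chromosome 16 below 50 Mb, at 1.33, and chromosome 8 above, at 1.87, the latter with its run of 74 windows. The part above 50 Mb on chromosome 15 holds no run of more than 4 windows. The number of copies of chromosome 15 in these cells was not measured here, and the input library's reads were not used, so more copies and more bound sites per copy cannot be told apart.

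More windows on a chromosome shorten the distances between them, so the spacing on chromosome 15 restates in part the count for which it was picked. From a window start to the next, the median was 139 kb and the quartiles were 25.1 and 413 kb, against 266 kb (46.2 and 875 kb) on the 18 other autosomes pooled. Taken one by one, the medians of the others ran from 48.4 kb, on chromosome 8, to 608 kb. Another window start lay within 1 kb of 8.41% of the windows, where the other autosomes had a median of 9.67% and ran from 4.64 to 24.8%. Within 10 kb the share was 29.0% (95% exact binomial interval 23.0 to 35.5%), with a median of 21.8% and a range from 13.4 to 48.0% elsewhere. Within 100 kb it was 61.7%, with a median of 50.2% and a range from 32.1 to 75.2%. Chromosome 15 was within the range of the others at each distance.

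**Figure D4:**
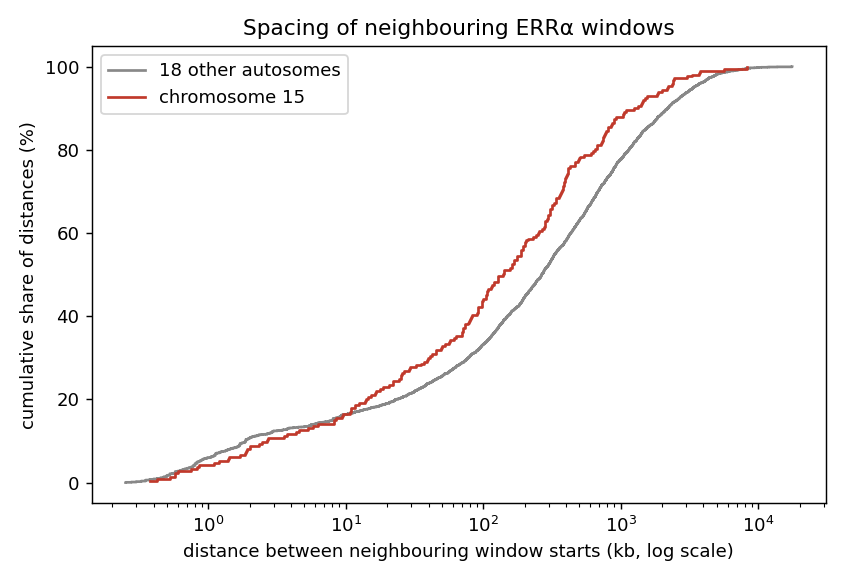
Cumulative share of distances between neighbouring window starts (log axis, kb) on chromosome 15 (red, 213 distances) and on the 18 other autosomes pooled (grey, 2951 distances). The red curve lies to the left around its median of 139 kb, against 266 kb for the grey curve, and the curves run together at 10 kb.

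Joining windows no more than 10 kb apart left 179 separate groups on chromosome 15: 152 single windows, 20 pairs, 6 groups of 3 and 1 group of 4. Singles made 71.0% of its windows, against 75.1% on the other autosomes, where groups reached 74 windows. Windows in pairs or larger groups were 13 of 64 (20.3%) below 50 Mb and 49 of 150 (32.7%) above. Of the 7 groups of 3 or more, 1 lay below 50 Mb, at chr15:38382601-38388000 (3 windows over 5.40 kb). Between 70 and 90 Mb, groups of 3 lay at chr15:76834376-76845750 (11.4 kb), chr15:79963401-79965225 (1.82 kb), chr15:83261476-83272875 (11.4 kb) and chr15:85429351-85433350 (4 kb). The last of these is nearly even, with 1875 and 1925 bp between its window starts. The group of 4 lay at chr15:98863301-98875425, over 12.1 kb with 3750, 5825 and 2350 bp between starts, and a group of 3 at chr15:99414026-99416475 (2.45 kb). With a fixed window width, several sites side by side and 1 wide region cut into windows cannot be told apart.

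The densest 1 Mb was 98 to 99 Mb, with 13 windows, and it was built from scattered windows rather than a single block. Its first 4 windows began at 98364451, 98462076, 98544951 and 98702601, between 56.5 and 158 kb before the next. A pair began at 98759076 and 98763426, followed by single windows at 98812651, 98823576 and 98841376, and by the group of 4 named above. On the other autosomes, 7 of 2301 bins of 1 Mb held 13 windows or more. From its first to its last window chromosome 15 spanned 101 bins of 1 Mb. Of these 3 (2.97%) held 10 windows or more, against 18 of 2301 (0.782%) on the other autosomes, and 37 (36.6%) held none, where the share of empty bins on the other autosomes ran from 33.0 to 51.7% with a median of 49.0%. The fullest 14 of these bins held at least 107 windows, 50% of the total.

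The longest stretch without a window ran from 13313601 to 21586225, 8.27 Mb between the windows chr15:13313401-13313600 and chr15:21586226-21586425. The longest stretches of the other autosomes ran from 4.78 to 17.7 Mb, with a median of 8.55 Mb. The next were 5.67 Mb and 3.77 Mb long, on either side of a lone window at chr15:49008276-49008475. They were bounded by chr15:43334176-43334375 and chr15:52779826-52780025. The bins from 15 to 20 and 45 to 50 Mb, which these stretches cover but for that window, hold 2 protein-coding genes each. The whole stretches hold more: 4, 10 and 8 genes, from the longest to the shortest. These counts take the same position numbers on the later build and are approximate.

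Of listed genes for energy metabolism, muscle and the ERR network, the gene table puts 18 of those reported here on chromosome 15. The lists were written with this chromosome in view, so their number there says nothing about enrichment. They are given as the content of each 10 Mb step and were not assigned to windows. Between 70 and 80 Mb, with 41 windows, lie Cyc1 (cytochrome c1 of respiratory complex III), Mb (myoglobin, the oxygen store of muscle) and Pvalb (parvalbumin, a calcium buffer of fast fibres). Between 80 and 90 Mb, also with 41 windows, lie Ndufa6 (a subunit of complex I) and Ppara (the nuclear receptor PPARα). Cpt1b (the muscle enzyme that commits fatty acids to mitochondrial import), Sco2 (an assembly factor of cytochrome c oxidase) and Mapk12 (a p38 kinase) lie there too. These 3 are within 1 Mb of the upper border, so their step on mm9 is less sure. The 2 steps thus hold 8 of the 18 genes, and 341 of the chromosome's 776 protein-coding genes.

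The other 10 listed genes lie in steps with fewer windows. Oxct1, which activates ketone bodies, lies between 0 and 10 Mb (16 windows), Cox6c, a subunit of cytochrome c oxidase, between 30 and 40 Mb (16 windows), Ndufb9, a subunit of complex I, between 50 and 60 Mb (15 windows), and Myc, a transcription factor of growth, between 60 and 70 Mb (12 windows). Pfkm (muscle phosphofructokinase) and Cox14 (an assembly factor of cytochrome c oxidase), the latter within 1 Mb of the border, lie between 90 and 100 Mb (26 windows). Sp1 (a transcription factor), Acvr1b (an activin receptor), Nr4a1 (an orphan nuclear receptor) and Atp5g2 (a subunit of ATP synthase) lie above 100 Mb (15 windows). Of the 18 genes, 13 had an entry in the promoter table, and 0 of these 13 held the AAGGTCA core in it. Over all 761 genes of chromosome 15 with a promoter the share was 6.96%, so 0 of 13 does not set the listed genes apart. It says only that these letters are not in that stretch of 300 bases.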

How the data were processed

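The deposited file is a list of window positions, with no score, fold, count or gene name; the submitters' processing notes name the aligner Bowtie 0.12.7 and the build mm9, while caller, threshold and any filter of reads are not given in the sources at hand. Window starts are printed counted from 1. The number of value columns of other samples was 0. The chromosome, bins and lists were chosen with earlier results of these data known.

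Windows and protein-coding genes (RefSeq, GRCm38.p6, 20665 on the autosomes) were counted by their lower coordinate in 5 Mb bins from base 1. Bins of the other 18 autosomes were put in 5 classes by quintiles of gene number, and the mean windows per bin of a class served as the expected value. The table lists 2 of the 776 genes of chromosome 15 before 3 Mb, and 105 on all autosomes, where positions may be those of scaffolds; they were kept. Groups join windows separated by at most 10 kb. No test was made. Named windows are the first and last, those beside the 3 longest empty stretches, those of the densest 1 Mb and groups of 3 or more; named bins are the 3 highest and lowest, and all 10 Mb bins; named genes are those of the lists, of which 1 is not reported here. The count of the AAGGTCA core was added after the gene and window counts had been seen. The ratio was checked on bins drawn with known rates as independent counts. This checks the calculation only, since real bins vary more and hold runs of windows. Scripts ran under Python 3.11.15 with pandas 2.3.3, numpy 2.4.6, scipy 1.17.1 and matplotlib 3.10.9.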

Additional observations from a re-analysis of the deposited data

How the results depend on the processing

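The ratio of windows found to windows expected on chromosome 15, 1.92, lay between 1.75 (expected from a straight line on gene number) and 2.05 (runs of more than 5 windows left out) over 13 alternatives, and stayed the highest of the autosomes in each. Below 50 Mb the ratio ran from 1.51 to 1.91 and above from 1.78 to 2.15. With 10 Mb bins, the last of which is only partly filled, the order of the sides turned, 1.87 below and 1.78 above. The bins above the mean of their class numbered 14 to 16, and rho ran from 0.67 to 0.81. Moving all genes by 1 Mb, to allow for the other build, gave 1.78 towards the centromere and 1.96 away from it. Windows per 100 genes fell from 27.6 to 23.1 with each group counted once and to 12.1 over all 1775 genes of the table. The share of windows with a neighbour was 8.41% within 1 kb and 61.7% within 100 kb, by construction. Leaving out chromosome 8, the first and last bins, or genes listed before 3 Mb was added after the data were seen. So were the ratios of single gene classes and of the gene-poor bins with long runs left out everywhere. No paired analysis was possible because there is only 1 library of each kind. Depth is unknown, so a bin without a window is not a bin without binding.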
